A study of Mus musculus with 6 samples.

Results

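Semaphorins, ephrins, Slits and netrins are families of guidance cues, and the genes described here are these cues and their receptors: plexins, neuropilins, Eph receptors, Robo receptors, the Unc5 receptors and Dcc. The rule reads mouse gene symbols and no level or fold change. It matched 72 genes of the RefSeq table, of which 71 were among the 18743 annotated genes listed in at least 1 library. Of the 72, 35 encode ligands and 34 receptors. The other 3 match by their symbol only: Unc50, which encodes a membrane protein of the secretory pathway and no netrin receptor, Unc5cl, listed in no library, and Plxna4os1, a non-coding RNA antisense to Plxna4.

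RNA was measured in cultured oligodendrocyte progenitor cells (OPCs), glial cells that divide and give rise to the oligodendrocytes that make myelin. The cells came from cortices of wild-type C57BL/6 mice labelled postnatal day 1, were isolated with magnetic beads against CD140 (PDGFRα) and were grown for 3 days. In the hemin group, the cells of 3 libraries were exposed to 50 µM hemin, an iron porphyrin derived from heme, for 12 h, and in the vehicle group, those of 3 libraries were exposed to 0.25% DMSO for 12 h. The comparison asks which transcripts differ after hemin. The labels do not say that replicates came from separate litters or cultures, so the p-values reflect the spread among these libraries alone, which may be technical.

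Guidance cues steer the tips of growing axons and the processes of migrating cells by attraction or repulsion. Class 3 semaphorins, Slits and netrins are secreted, whereas most other semaphorins and all ephrins stay attached to the membrane and act at cell contacts, where they can also signal back into the cell that carries them. Plexins are the signalling receptors of semaphorins, with neuropilins as co-receptors for class 3. In the developing brain the same cues direct OPC migration, and several of them are also known to affect oligodendrocyte differentiation.

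The authors' expected counts (estimated reads assigned to each transcript) added up to between 6463460 and 6523639 in the hemin libraries and between 6339966 and 6390691 in the vehicle libraries. The quasi-likelihood test of edgeR was fitted to 12779 genes, with p-values adjusted over all of them by the Benjamini-Hochberg method. At an adjusted p below 0.05, 31.9% of these genes were called: 16.2% were higher in the hemin group and 15.7% were lower. With libraries scaled by their totals alone, 1715 of 4297 called genes were higher. Of the 8 OPC markers used to check the label, all were above 1 FPKM (fragments per kilobase of transcript, scaled to library size) on average, and 8 of 8 were lower with hemin, with a summed level of 343 to 524 FPKM with hemin and 1160 to 1390 FPKM with vehicle. In bulk cultures, fewer cells of a type and less RNA per cell cannot be told apart.

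A small group of guidance genes rose with hemin, while a larger group fell. The 6 that rose were the receptor genes Epha2, Unc5b and Dcc and the ligand genes Sema6a, Sema3c and Efnb2. The 22 that fell included 6 of the 9 plexins, 6 semaphorins, 4 Eph receptors, Ntn4, Efna2, Nrp2, Robo1 and Unc5a. Of the 60 members that passed the filter on low counts, 28 (46.7%) passed the test, 6 of them higher and 22 (36.7%) lower, beside 31.9% called, 16.2% higher and 15.7% lower among all genes tested. The median log2 fold change of the 60 was -0.41, beside 0.00 over all genes tested. The count of called members was lower in fits without 1 library, which fewer samples enter. It was 17 (28.3%) without hemin replicate 2, 15 (25%) without vehicle replicate 1 and 16 (26.7%) without vehicle replicate 2. The share of all genes called in the same fits was 22.3%, 19.8% and 19.5%, in that order.

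Both ligands and receptors had members that rose and members that fell. Of 30 tested ligands, 3 (10%) rose and 8 (26.7%) fell, and 19 did not pass, with a median log2 fold change of -0.33. Of 29 tested receptors, 3 (10.3%) rose and 13 (44.8%) fell, and 13 did not pass, with a median of -0.42. The shares over all genes tested were 16.2% higher and 15.7% lower. Whether the share of called genes differs between ligands and receptors was not tested. Without vehicle replicate 1, 9 ligands (30%) and 6 receptors (20.7%) were called, beside 19.8% of all genes in that fit. Without vehicle replicate 2, 6 ligands (20%) and 10 receptors (34.5%) were called, beside 19.5%, and without hemin replicate 2, 7 ligands (23.3%) and 10 receptors (34.5%), beside 22.3%. Among the ligands, 2 of the 10 tested secreted ones (class 3 semaphorins, Slits and netrins) were called, and 9 of the 20 tested membrane-bound ones, beside 31.9% of all genes; the difference between these kinds of ligand was not tested. The secreted count was 1 without vehicle replicate 2, and 3 in the settings in which Ntn1 passed, except without vehicle replicate 3, where it was 2.

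**Figure D1:**
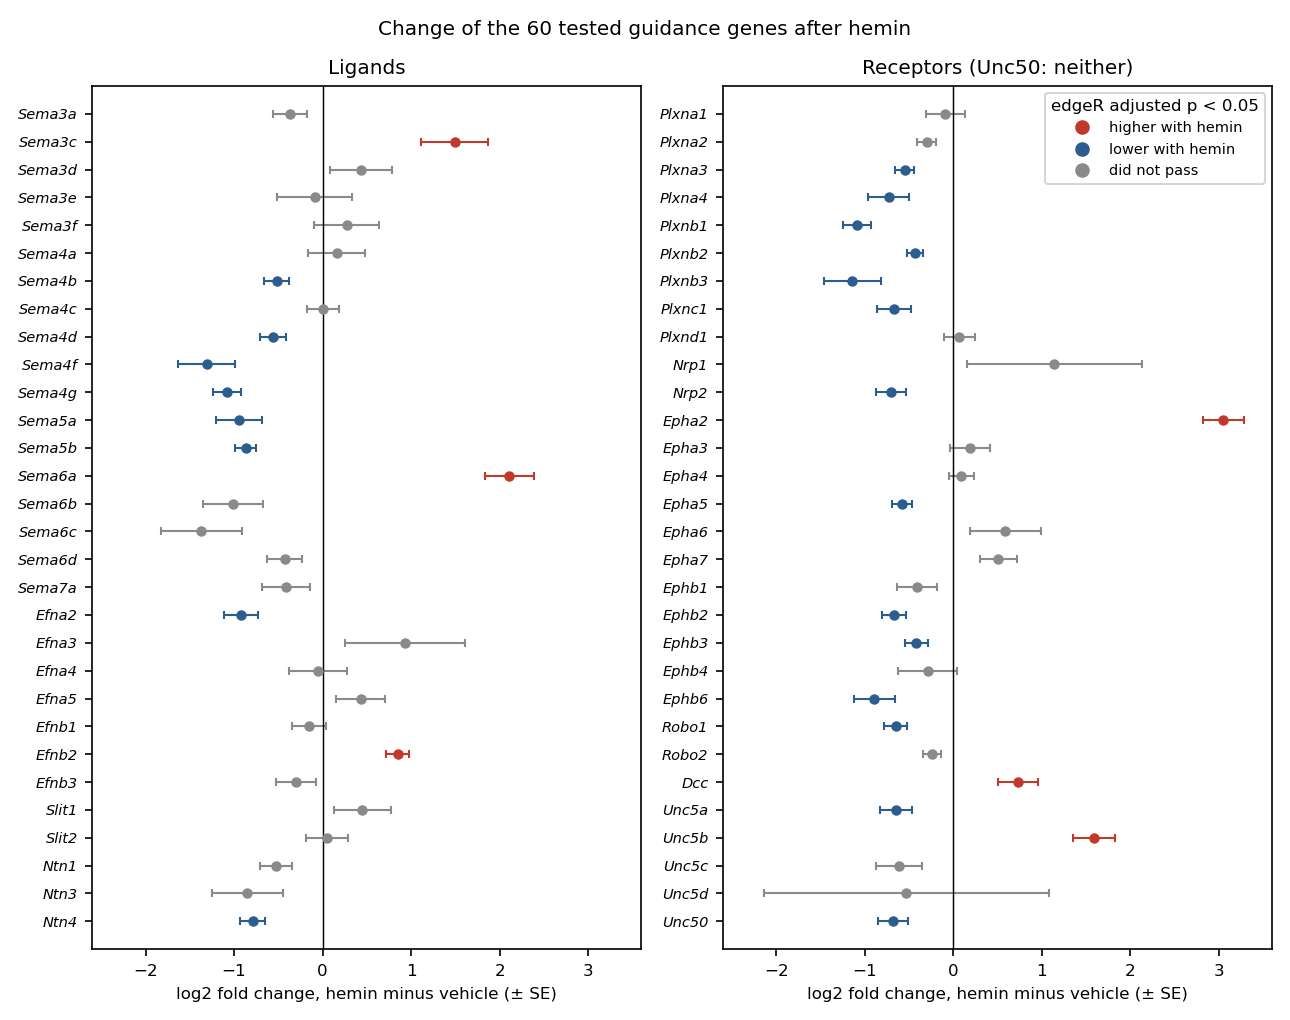
Log2 fold change (hemin minus vehicle, edgeR) of each of the 60 tested genes on the horizontal axis, ligands left and receptors right, with the standard error as a bar; red and blue points are higher and lower with hemin at an adjusted p below 0.05. Epha2 stands at 3.05 and Sema6a at 2.11, while every called plexin lies left of 0.

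Sema6a was the ligand with the greatest rise. It encodes a transmembrane semaphorin that binds the plexins A2 and A4. Its level was 23.6, 20.6 and 13.2 FPKM in hemin replicates 1 to 3, against 3.58, 6.03 and 4.29 FPKM in vehicle replicates 1 to 3. Every hemin library lay above every vehicle library, and the fold change was 4.32 (log2 2.11 ± 0.28, SE; edgeR adjusted p = 0.00194). Sema6a held 23.7% of the FPKM summed over all semaphorins with hemin and 5.02% with vehicle.

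Sema3c, which encodes a secreted class 3 semaphorin that acts through neuropilins, also rose. It stood at 4.94, 2.61 and 1.88 FPKM with hemin, against 1.39, 1.05 and 1.08 FPKM with vehicle. Hemin replicate 1 was the highest by far, and the groups did not overlap (2.81-fold, edgeR adjusted p = 0.0227). Leaving out vehicle replicate 2 or 3 ended the call (edgeR adjusted p from 0.0625 to 0.0719). The other measured class 3 genes did not pass. Sema3a, a classical axon repellent, averaged 4.35 ± 0.703 FPKM with hemin and 5.87 ± 1.12 FPKM with vehicle (SD, n = 3 each). Sema3d averaged 1.57 FPKM with hemin and 1.21 FPKM with vehicle, and Sema3e, a ligand of plexin D1, 1.26 and 1.40 FPKM.

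Class 4 and class 5 semaphorins, which are transmembrane proteins, fell in 6 of 8 tested cases, beside 15.7% of all genes tested. Sema5b, which carries thrombospondin repeats, had 7.0, 9.18 and 9.21 FPKM with hemin, against 15.9, 16.1 and 16.0 FPKM with vehicle (1.83-fold lower, edgeR adjusted p = 0.00215). Sema4g had 1.42, 1.76 and 1.66 FPKM with hemin, against 3.45, 3.54 and 3.65 FPKM with vehicle (2.12-fold lower, edgeR adjusted p = 0.00281). The vehicle libraries of these genes lay close together and above every hemin library, and both calls held under all 13 alternatives tried.

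Sema5a, a ligand of plexin B3 that is made by cells of the oligodendrocyte lineage and inhibits axon growth, had 2.04, 2.49 and 2.30 FPKM with hemin, against 5.49, 5.40 and 2.71 FPKM with vehicle. Sema4b had 8.96, 7.72 and 9.08 FPKM with hemin, against 12.4, 11.3 and 14.6 FPKM with vehicle. For Sema5a, vehicle replicate 3 was only just above the hemin libraries, while Sema4b was well separated. Sema4d, the ligand of plexin B1, had 1.78, 1.87 and 2.04 FPKM with hemin, against 3.05, 2.86 and 2.76 FPKM with vehicle. Sema4f had 0.35, 0.28 and 0.55 FPKM with hemin, against 0.91, 1.03 and 1.11 FPKM with vehicle. These 4 genes were lower by 1.92-fold, 1.43-fold, 1.47-fold and 2.49-fold, in that order, with edgeR adjusted p-values from 0.0184 to 0.0291. Each call was lost in several fits without 1 library. That of Sema5a was lost without hemin replicate 1, 2 or 3 or vehicle replicate 1 or 2 (edgeR adjusted p from 0.0666 to 0.103). That of Sema4b was lost without hemin replicate 2 or 3 or vehicle replicate 1 or 3 (edgeR adjusted p from 0.0572 to 0.0946). That of Sema4d was lost without hemin replicate 2 or vehicle replicate 1, 2 or 3 (edgeR adjusted p from 0.067 to 0.113). That of Sema4f was lost without hemin replicate 2 or vehicle replicate 2 or 3 (edgeR adjusted p from 0.0567 to 0.0641). Fewer samples enter these fits, and all 4 genes stayed lower with hemin under every alternative tried.

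The remaining semaphorins did not pass the test. Sema6d, a ligand of plexin A1 and the most abundant semaphorin over the 6 libraries, had 21.1, 18.2 and 14.4 FPKM with hemin, against 20.1, 28.3 and 26.6 FPKM with vehicle. The groups overlapped through vehicle replicate 1 (log2 fold change -0.43 ± 0.20, SE; edgeR adjusted p = 0.134). Sema6b averaged 0.923 FPKM with hemin and 1.92 FPKM with vehicle, and Sema6c 0.50 and 1.36 FPKM; their groups did not overlap, with edgeR adjusted p-values of 0.0592 and 0.0557. Sema6b passed in 5 of the 13 alternatives and Sema6c in 3, always lower with hemin. Sema4c averaged 4.00 FPKM with hemin and 4.11 FPKM with vehicle, Sema4a 1.11 and 1.02 FPKM, and Sema7a, the GPI-anchored ligand of plexin C1, 2.23 and 3.05 FPKM.

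Among the ephrins, the B-class ligand Efnb2 rose and the A-class ligand Efna2 fell. Efnb2, a transmembrane ligand of EphB receptors and EphA4, had 20.6, 21.1 and 21.7 FPKM with hemin, against 11.5, 10.7 and 14.3 FPKM with vehicle. The hemin libraries lay close together and above every vehicle library (1.80-fold, edgeR adjusted p = 0.00326), and the call held under all 13 alternatives tried. Efnb2 held 65.5% of the FPKM of the B-class ephrins with hemin and 47.4% with vehicle.

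Efna2, a GPI-anchored ephrin, had 3.02, 2.86 and 2.61 FPKM with hemin, against 5.76, 6.25 and 4.71 FPKM with vehicle. All hemin libraries were below all vehicle libraries (1.89-fold lower, edgeR adjusted p = 0.0109; 0.0504 without vehicle replicate 2). Efnb1 averaged 5.55 ± 0.692 FPKM with hemin and 6.42 ± 1.15 FPKM with vehicle, and Efnb3 5.58 ± 1.48 and 7.08 ± 1.46 FPKM (SD, n = 3 each), and neither passed. Efna5 averaged 1.11 FPKM with hemin and 0.853 FPKM with vehicle. Efna3 was spread too widely to compare, with 0.90, 1.87 and 3.16 FPKM with hemin, against 2.20, 0.49 and 0.50 FPKM with vehicle.

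The promoter windows of the risen genes are printed because several genes of oxidative and proteotoxic stress respond through short known motifs, and a reader can see here which of those letters lie directly before the start of each gene. Each window is the 250 bases before the gene's start from RefSeq on GRCm38.p6, 5′ to 3′ on the gene's strand, with motif matches in capitals. The motifs, chosen with the results known, were TGANTCA (AP-1), TGACNNNGC (core of the antioxidant response element), TGACGTCA (cAMP response element), TGATGNAA (C/EBP-ATF), AACAAT (SOX) and GAANNTTC (heat shock element), each searched on both strands. Windows were used for 4 of the 6 risen genes, on these coordinates: Efnb2 on the minus strand of chr8:8661243-8661492, Epha2 on the plus strand of chr4:141300971-141301220, Unc5b on the minus strand of chr10:60831582-60831831 and Sema3c on the plus strand of chr5:17574566-17574815.
Efnb2: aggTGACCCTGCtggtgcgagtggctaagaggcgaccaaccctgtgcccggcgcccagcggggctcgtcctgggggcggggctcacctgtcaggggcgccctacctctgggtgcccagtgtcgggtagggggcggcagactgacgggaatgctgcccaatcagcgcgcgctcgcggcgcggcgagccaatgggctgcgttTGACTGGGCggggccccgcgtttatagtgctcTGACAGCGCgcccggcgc
Epha2: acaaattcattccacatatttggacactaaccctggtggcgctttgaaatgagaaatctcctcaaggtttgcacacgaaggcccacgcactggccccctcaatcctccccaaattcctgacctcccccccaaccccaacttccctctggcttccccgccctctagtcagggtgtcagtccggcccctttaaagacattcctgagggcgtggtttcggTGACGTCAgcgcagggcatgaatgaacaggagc
Unc5b: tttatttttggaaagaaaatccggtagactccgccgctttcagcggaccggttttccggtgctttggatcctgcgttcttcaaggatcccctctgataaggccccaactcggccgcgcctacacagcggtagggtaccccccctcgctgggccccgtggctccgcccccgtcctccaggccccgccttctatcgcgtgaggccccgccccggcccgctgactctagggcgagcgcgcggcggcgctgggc
Sema3c: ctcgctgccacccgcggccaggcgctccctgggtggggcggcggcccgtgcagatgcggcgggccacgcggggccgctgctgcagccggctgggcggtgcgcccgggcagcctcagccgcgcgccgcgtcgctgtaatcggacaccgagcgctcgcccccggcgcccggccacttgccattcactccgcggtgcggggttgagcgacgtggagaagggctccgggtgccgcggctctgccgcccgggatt

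The window of Efnb2 holds the antioxidant response core at 3 places, beginning 247, 50 and 18 bases before the start. A core of these letters is present in 10.2% of all 32851 windows of this length in the table. The window of Epha2 holds a cAMP response element beginning 33 bases before the start, which 1.55% of all windows hold. The windows of Unc5b and Sema3c hold none of the 6 motifs. They are rich in G and C, with 66.8% and 78.4%, as is that of Efnb2 with 72.0%, beside 55.6% for Epha2 and a median of 52.4% over all windows. Of 21 fallen genes with a window, 3 hold the antioxidant response core (Sema4d, Ntn4 and Plxnb3) and none holds the cAMP response element. Counted by gene, 11.5% and 1.77% of all 27025 genes with a window hold them. Of the other motifs, AP-1 is in 1 of the 21 (Sema4d) and SOX in 2 (Sema4d and Plxnb3), beside 7.82% and 10.9% of all these genes. The remaining motifs, C/EBP-ATF and the heat shock element, are in none of the 21. A match describes letters and does not show that a factor binds there.

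The fold changes of all 3 tested netrins were below 0 on the log2 scale, and 1 of them passed, beside 15.7% of all genes called lower. Ntn4, a laminin-related netrin of basement membranes, had 8.53, 6.74 and 7.75 FPKM with hemin, against 13.4, 14.4 and 13.6 FPKM with vehicle (1.73-fold lower, edgeR adjusted p = 0.00632), and the call held under all 13 alternatives tried. Ntn1, the classical attractant that acts through Dcc, had 10.5, 9.66 and 8.21 FPKM with hemin, against 15.7, 16.3 and 10.8 FPKM with vehicle. The groups did not overlap, by a narrow margin at vehicle replicate 3, and the gene did not pass (log2 fold change -0.53 ± 0.18, SE; edgeR adjusted p = 0.0614). It lay close to the threshold: it passed, lower with hemin, in 7 of the 13 alternatives, among them DESeq2 (adjusted p = 0.0282), edgeR with totals alone (0.0299) and edgeR without vehicle replicate 3 (0.021). Slit2, a secreted repellent and the most abundant Slit, had 3.45, 2.82 and 2.06 FPKM with hemin, against 3.46, 2.56 and 2.37 FPKM with vehicle. Its groups overlapped throughout (log2 fold change 0.05 ± 0.24, SE).

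The plexins, the main semaphorin receptors, were mostly lower with hemin: 6 of 9 fell and none rose. Over all genes tested, 15.7% were called lower and 16.2% higher. Plxnb1, the receptor of Sema4d, had 6.91, 5.84 and 6.52 FPKM with hemin, against 16.0, 15.6 and 11.1 FPKM with vehicle (2.13-fold lower, edgeR adjusted p = 0.00281), and the call held under all 13 alternatives tried. Plxnb2, the most abundant plexin, had 26.9, 26.8 and 28.8 FPKM with hemin, against 40.9, 39.0 and 35.1 FPKM with vehicle (1.35-fold lower, edgeR adjusted p = 0.00915; 0.054 without vehicle replicate 1). Plxnb3, a plexin of the oligodendrocyte lineage that binds Sema5a, had 0.61, 1.10 and 1.11 FPKM with hemin, against 2.71, 2.35 and 1.39 FPKM with vehicle (2.21-fold lower, edgeR adjusted p = 0.0297). All members of the B class were called lower, with no overlap between the groups in any of them. The call of Plxnb3 was lost without hemin replicate 1, 2 or 3 or vehicle replicate 1 or 2 (edgeR adjusted p from 0.0508 to 0.111).

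The A-class plexins transmit class 3 signals with neuropilins and bind class 6 semaphorins directly. All 4 had a log2 fold change below 0, and 2 passed. Plxna3, which works with Nrp2 for Sema3f, had 3.66, 3.78 and 4.02 FPKM with hemin, against 6.17, 5.51 and 5.63 FPKM with vehicle (1.46-fold lower, edgeR adjusted p = 0.0089; 0.055 without vehicle replicate 1). Plxna4 had 1.87, 1.23 and 1.23 FPKM with hemin, against 2.93, 2.08 and 2.44 FPKM with vehicle (1.66-fold lower, edgeR adjusted p = 0.0476). Hemin replicate 1 came close to the lowest vehicle library for Plxna4, and its call was lost without hemin replicate 2 or 3 or vehicle replicate 1, 2 or 3 (edgeR adjusted p from 0.0594 to 0.149) and in limma on log2(FPKM + 0.1) (limma adjusted p = 0.0545). Plxna2 averaged 16.2 ± 1.71 FPKM with hemin and 20.7 ± 0.846 FPKM with vehicle (SD, n = 3 each; edgeR adjusted p = 0.065) and passed, lower, in 5 of the 13 alternatives, and Plxna1 averaged 14.5 ± 4.30 and 16.1 ± 1.75 FPKM. Plxnc1, the receptor of Sema7a, had 3.99, 5.89 and 5.40 FPKM with hemin, against 9.87, 8.59 and 6.57 FPKM with vehicle (1.59-fold lower, edgeR adjusted p = 0.0306), a call lost without hemin replicate 1 or 3 or vehicle replicate 1 or 2 (0.058 to 0.122). Plxnd1, the receptor of Sema3e, averaged 7.73 FPKM with hemin and 7.65 FPKM with vehicle.

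Of the neuropilins, Nrp2 fell and Nrp1 was listed at 0 in 1 library. Nrp2 had 2.88, 2.47 and 2.82 FPKM with hemin, against 4.59, 3.76 and 5.12 FPKM with vehicle (1.62-fold lower, edgeR adjusted p = 0.0201). All vehicle libraries lay above the hemin libraries, and the call was lost without hemin replicate 2 or vehicle replicate 1 or 3 (edgeR adjusted p from 0.0665 to 0.0697). Nrp1, the co-receptor of Sema3a, had 9.95, 5.17 and 6.33 FPKM with hemin and was listed at 5.60, 0 and 4.56 FPKM with vehicle. The 0 of vehicle replicate 2 stands beside 300 and 248 expected counts in the other vehicle libraries and can be a failed estimate. Without that library the log2 fold change was 0.56 ± 0.30 (SE; edgeR adjusted p = 0.236), and with it 1.14 ± 0.99 (edgeR adjusted p = 0.419).

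**Figure D2:**
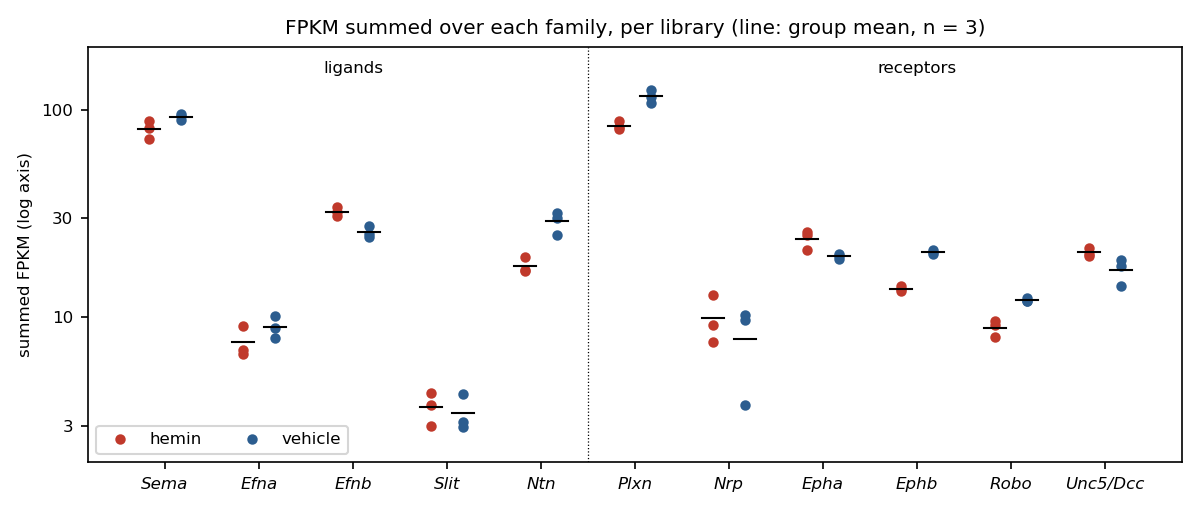
FPKM summed over the listed members of each family (vertical log axis) in each library, hemin left of vehicle, with the group mean as a line. The plexin sums were 80.4 to 88.3 FPKM with hemin and 108 to 124 FPKM with vehicle, while the B-class ephrin sums were 30.7 to 34.0 FPKM with hemin and 24.4 to 27.5 FPKM with vehicle.

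Epha2 had the greatest change of all members. EphA2 is a receptor tyrosine kinase best known from epithelia and tumours, with ephrin-A1 as its main ligand. It had 5.75, 7.29 and 8.04 FPKM with hemin, against 1.16, 0.76 and 0.70 FPKM with vehicle. The lowest hemin library stood far above the highest vehicle library, and the fold change was 8.28 (log2 3.05 ± 0.23, SE; edgeR adjusted p = 0.000317), a call that held under all 13 alternatives tried. Epha2 held 29.4% of the FPKM of the EphA receptors with hemin and 4.44% with vehicle.

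Epha5, an EphA receptor of topographic axon mapping, moved in the other direction, with 4.90, 5.68 and 5.50 FPKM with hemin, against 8.94, 8.45 and 7.47 FPKM with vehicle (1.49-fold lower, edgeR adjusted p = 0.00706). The groups were separate and the call held under all 13 alternatives tried. Epha4, which binds ephrins of both classes, was the most abundant EphA gene over the 6 libraries, with 6.43, 7.88 and 7.95 FPKM with hemin, against 6.07, 7.39 and 8.10 FPKM with vehicle, and the groups overlapped. Epha7 averaged 1.95 ± 0.245 FPKM with hemin and 1.39 ± 0.346 FPKM with vehicle (SD, n = 3 each; edgeR adjusted p = 0.108), and Epha3 1.56 ± 0.200 and 1.42 ± 0.238 FPKM.

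The EphB receptors, which bind the B-class ephrins, were lower with hemin in all 5 genes by the sign of the fold change. Of the 5, 3 passed, beside 15.7% called lower over all genes tested. Ephb2 had 3.87, 3.36 and 4.20 FPKM with hemin, against 5.47, 6.4 and 6.93 FPKM with vehicle (1.59-fold lower, edgeR adjusted p = 0.00938), with a call that held under all 13 alternatives tried. Ephb3, the most abundant of them, had 4.59, 4.98 and 5.71 FPKM with hemin, against 7.35, 7.35 and 6.42 FPKM with vehicle (1.34-fold lower, edgeR adjusted p = 0.0436). Ephb6, which lacks kinase activity, had 1.26, 2.01 and 1.33 FPKM with hemin, against 2.92, 2.87 and 3.00 FPKM with vehicle (1.85-fold lower, edgeR adjusted p = 0.0221). None of the 3 overlapped between the groups. The call of Ephb3 was lost without hemin replicate 1 or 2 or vehicle replicate 1, 2 or 3 (edgeR adjusted p from 0.065 to 0.164) and in limma on log2(FPKM + 1), where the adjusted p was 0.05 and not below it, and that of Ephb6 without hemin replicate 3 or vehicle replicate 1, 2 or 3 (0.0591 to 0.0712). Ephb1 averaged 1.81 ± 0.380 FPKM with hemin and 2.50 ± 0.349 FPKM with vehicle, and Ephb4 1.49 ± 0.630 and 1.91 ± 0.174 FPKM (SD, n = 3 each).

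Netrin receptors moved in opposite directions. Unc5b, a repulsive netrin receptor that can also trigger cell death in the absence of its ligand, had 7.42, 4.76 and 6.93 FPKM with hemin, against 2.64, 1.64 and 2.30 FPKM with vehicle (3.01-fold higher, edgeR adjusted p = 0.00332). The groups were far apart, and the call held under all 13 alternatives tried. Unc5a, its close relative, had 1.62, 1.94 and 2.37 FPKM with hemin, against 3.27, 2.97 and 3.34 FPKM with vehicle (1.57-fold lower, edgeR adjusted p = 0.0318), a call lost without hemin replicate 1 or 2 or vehicle replicate 1, 2 or 3 (0.0546 to 0.108). Unc5c averaged 3.88 ± 1.47 FPKM with hemin and 6.09 ± 0.781 FPKM with vehicle (SD, n = 3 each; edgeR adjusted p = 0.116). Unc5b held 31.0% of the FPKM of Dcc and the Unc5 receptors with hemin and 13.0% with vehicle.

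Dcc, the receptor for attraction to netrin-1, had 8.26, 8.65 and 7.41 FPKM with hemin, against 5.30, 6.64 and 3.29 FPKM with vehicle. All hemin libraries lay above all vehicle libraries (1.66-fold, edgeR adjusted p = 0.047). This call was the least stable of the 6 rises: it was lost without hemin replicate 1, 2 or 3 or vehicle replicate 1 (edgeR adjusted p from 0.0641 to 0.123), with totals alone (0.0678), with no filter on low counts (0.0586) and with limma on log2(FPKM + 1) or log2(FPKM + 0.1) (0.0546 and 0.0605).

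Robo1, a receptor of Slits, fell, with 3.19, 4.17 and 4.34 FPKM with hemin, against 6.58, 6.46 and 5.91 FPKM with vehicle (1.57-fold lower, edgeR adjusted p = 0.00895), and the call held under all 13 alternatives tried. Robo2, its relative and the most abundant Robo gene over the 6 libraries, had 4.59, 4.78 and 4.74 FPKM with hemin, against 5.43, 5.85 and 5.94 FPKM with vehicle. These groups did not overlap either, but the difference was small (log2 fold change -0.24 ± 0.10, SE; edgeR adjusted p = 0.117). Unc50, included by its symbol only, had 7.66, 6.11 and 6.74 FPKM with hemin, against 11.3, 12.4 and 10.4 FPKM with vehicle (1.6-fold lower, edgeR adjusted p = 0.0222), a call lost without hemin replicate 2 or 3 or vehicle replicate 1 or 2 (0.0541 to 0.0888).

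**Figure D3:**
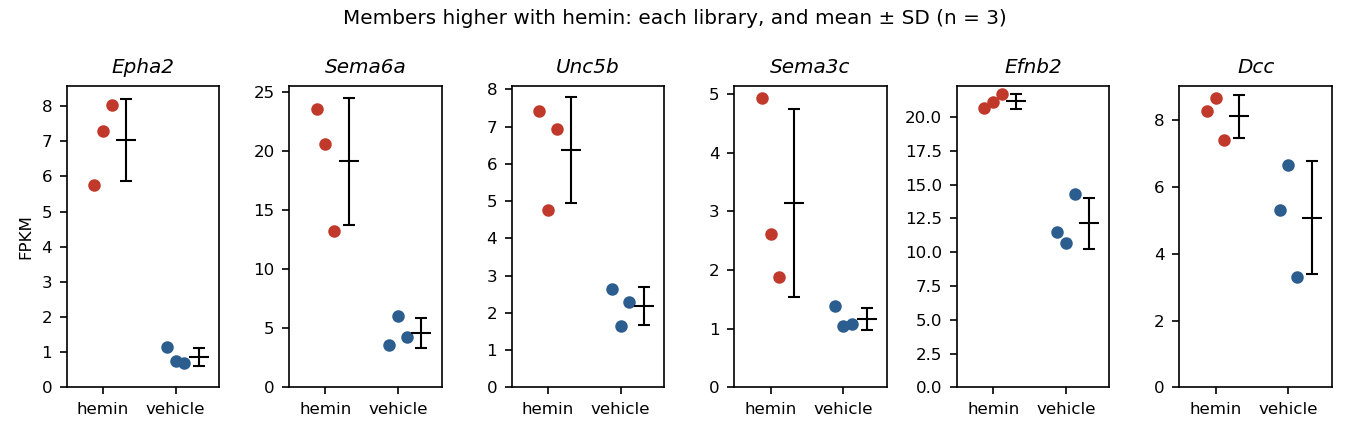
FPKM (vertical axis, from 0) of the 6 members called higher, each point a library, hemin left of vehicle, with the mean and SD of 3 libraries in black. The lowest hemin library lies above the highest vehicle library in each panel, by the widest ratio for Epha2 (5.75 against 1.16 FPKM) and by a small one for Dcc (7.41 against 6.64 FPKM).

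**Figure D4:**
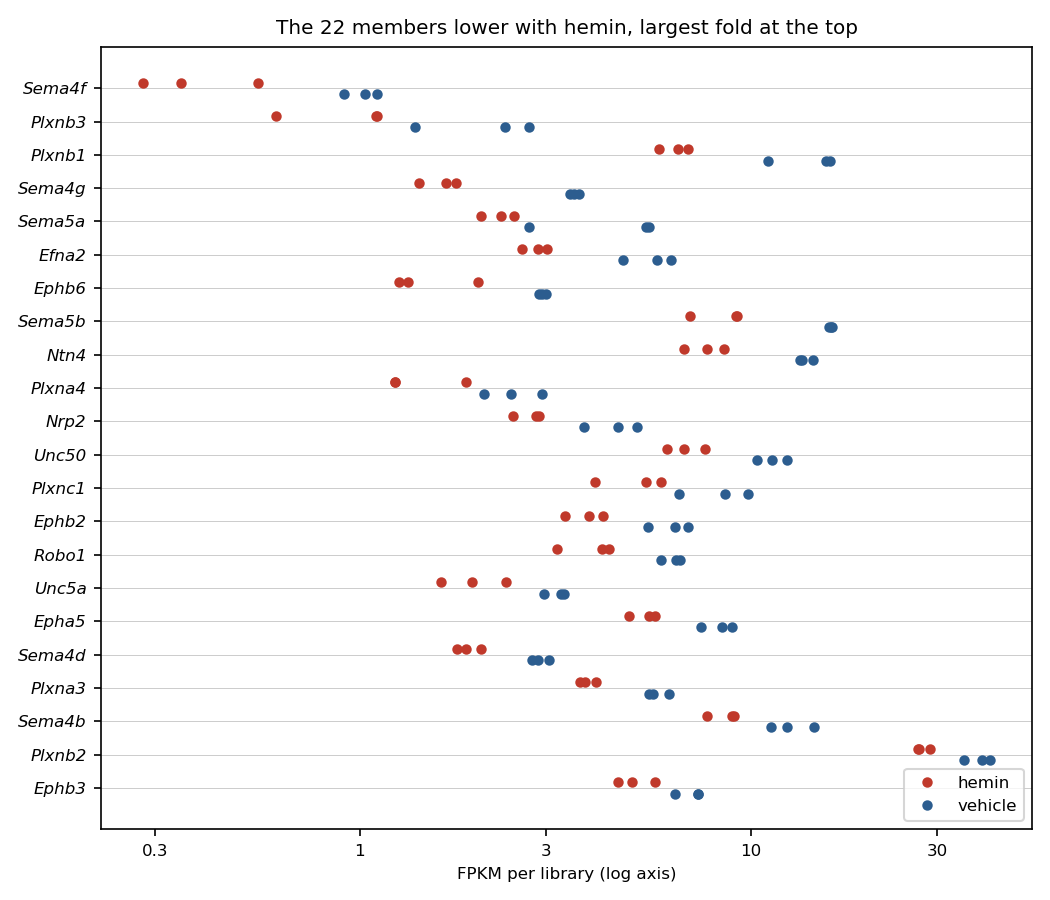
FPKM per library (horizontal log axis) of the 22 members called lower, hemin points above vehicle points in each row, ordered by fold change. Sema4f, the top row, had 0.28 to 0.55 FPKM with hemin and 0.91 to 1.11 FPKM with vehicle, and Ephb3, the bottom row, had 4.59 to 5.71 FPKM with hemin and 6.42 to 7.35 FPKM with vehicle.

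Some of the known ligand and receptor pairs were set side by side, chosen without a fixed rule. Not among them are Epha2, whose main ligand gene Efna1 was too low to be tested, and Sema3c, which rose while Nrp2 fell. For Sema6a, which rose 4.32-fold, the receptor Plxna4 fell 1.66-fold and Plxna2 did not pass. For Efnb2, which rose 1.80-fold, the receptors Ephb2 and Ephb3 fell 1.59-fold and 1.34-fold, and Ephb1, Ephb4 and Epha4 did not pass. For Ntn1, which passed only in some alternatives, the receptors Unc5b and Dcc rose, the call of Dcc being lost in 8 of the 13 alternatives, Unc5a fell and Unc5c did not pass. For Sema4d and Plxnb1 and for Sema5a and Plxnb3, the ligand and the receptor both fell. For Slit2, which did not pass, the receptor Robo1 fell and the more abundant Robo2 did not pass. Several of these falls were also unstable. The calls of Sema4d, Sema5a and Unc5a were lost in 5 of the 13 alternatives each, those of Plxnb3 and Plxna4 in 6 each and that of Ephb3 in 7. The calls of Sema6a, Efnb2, Ephb2, Unc5b, Plxnb1 and Robo1 held in all 13.

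The levels of all ligands and all receptors were summed per library. The summed ligand level was 149, 141 and 135 FPKM with hemin, against 161, 163 and 154 FPKM with vehicle, and the summed receptor level was 164, 156 and 162 FPKM with hemin, against 205, 189 and 184 FPKM with vehicle. Every hemin library was below every vehicle library in both sums. With FPKM divided by the TMM factors of the edgeR fit, a scaling chosen after seeing the data, the receptor sums stayed apart (161 to 173 FPKM with hemin, 179 to 199 FPKM with vehicle) and the ligand sums overlapped (136 to 158 and 149 to 158 FPKM). The ratio of ligands to receptors overlapped between the groups, at 0.882 ± 0.0452 with hemin and 0.828 ± 0.0382 with vehicle (SD, n = 3 each). The receptor sum of vehicle replicate 2, which had the highest vehicle ratio (0.861), includes Nrp1 at 0, which can be a failed estimate. The sums of netrins (16.7 to 19.5 FPKM with hemin, 24.8 to 31.8 FPKM with vehicle), EphB receptors (13.4 to 14.1 and 20.1 to 21.1 FPKM) and Robo receptors (8.0 to 9.54 and 12.0 to 12.4 FPKM) did not overlap, nor did those of plexins. The sums of EphA receptors (21.1 to 25.7 FPKM with hemin, 19.0 to 20.2 FPKM with vehicle) and of Dcc with the Unc5 receptors (19.8 to 21.6 and 14.1 to 18.8 FPKM) were higher with hemin without overlap. Single genes weighed heavily in both. Epha2, the only EphA gene called higher, held 29.4% of the EphA level with hemin and 4.44% with vehicle. Unc5b held 31.0% and 13.0% of the level of Dcc with the Unc5 receptors. By the sign of the log2 fold change, 5 of the 6 tested EphA genes were higher with hemin, beside 6407 of 12779 genes in all. Of Dcc with the Unc5 receptors, 2 genes were higher and 3 lower by sign. With libraries scaled to equal FPKM sums, also chosen after seeing the data, the sums of Dcc with the Unc5 receptors overlapped, with the lowest hemin library at 19.0 FPKM and the highest vehicle library at 19.9 FPKM, and those of EphA receptors nearly met (21.4 to 23.6 and 19.9 to 21.3 FPKM). No test was made on these sums.

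In all, the FPKM ranges of the groups did not overlap for 36 of the 60 tested members, beside 49.1% of all genes tested. The 28 called genes were among them. The other 8 were Sema6b, Sema6c, Ntn1, Plxna2, Epha7, Ephb1, Robo2 and Unc5c, which did not pass. The 6 tested genes below 1 FPKM on average in both groups were Sema3f, Efna4, Slit1, Ntn3, Epha6 and Unc5d, none of which passed. Unc5d was listed at 0.28, 0.30 and 0 FPKM with hemin and at 0.88, 0 and 0 FPKM with vehicle, zeros that can be failed estimates. The 11 listed members that the filter left out were Sema3b, Sema3g, Efna1, Slit3, Ntn5, Epha1, Epha8, Epha10, Robo3, Robo4 and Plxna4os1, which reached at most 0.98 FPKM and 16 expected counts in a library. Of the 60 tested members, 59 averaged at least 10 expected counts in both groups.

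Several named members are made as more than 1 transcript, and the authors' estimates of their shares are descriptions only. Of the Sema6a level, the transcript of 6901 nt held 66.1%, 82.6% and 76.5% with hemin, against 60.6%, 61.0% and 54.1% with vehicle, and the transcript of 6738 nt held the rest. The share of the longer transcript was higher in each hemin library than in any vehicle library, though 3 libraries against 3 cannot go below an exact permutation p of 0.1. For Ephb6, 2 transcripts of 3760 and 3756 nt were listed. The longer held 49.2%, 100% and 0% of the level with hemin, against 100% in each vehicle library, so the split between such similar transcripts varied fully within the hemin group. The shares of the 3 listed Slit2 transcripts also varied, with 81.4%, 79.4% and 61.2% for that of 9958 nt with hemin, against 0%, 52.3% and 14.8% with vehicle. This share was higher in each hemin library than in any vehicle library, with the same limit on 3 libraries against 3 as for Sema6a. The 3 transcripts have 9958, 9970 and 10021 nt and are, like those of Ephb6, similar in length. For Sema6d, the transcript of 5699 nt held 42.7%, 55.6% and 24.0% with hemin, against 0.299%, 53.3% and 42.4% with vehicle. Shares also varied between libraries for Nrp2 and Sema4f.

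Where exons of another gene overlap a member, reads could come from either, because the sources used here do not say if the libraries kept strand. In GENCODE vM21 this holds for 4 of the called genes. Plxnb1 overlaps the antisense gene Gm7628 over up to 257 nt, Plxna4 overlaps Plxna4os3 over 110 nt, Unc5a overlaps Hk3 over 34 nt, and Plxnc1 overlaps a same-strand gene, Gm48718, over 115 nt. Hk3 averaged 0.527 FPKM with hemin and 0.387 FPKM with vehicle, and the other 3 overlapping genes were not listed in any library. Whether the authors' annotation held these 3 is not known, so their absence does not show that they were not expressed.

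Guidance genes outside the rule were read from a list of co-receptors, related cues and intracellular effectors. Of 65 tested genes on it, 6 rose and 12 fell (27.7% called, beside 31.9% of all genes tested), with a median log2 fold change of -0.19. The count was 11 (16.7%) without vehicle replicate 1 and 8 (12.1%) without vehicle replicate 2, beside 19.8% and 19.5% of all genes in those fits. Rgma, a repulsive ligand of the receptor neogenin, averaged 5.25 FPKM with hemin and 20.8 FPKM with vehicle, and Draxin, a secreted repellent that binds Dcc, 1.03 and 5.62 FPKM. Srgap3, a GTPase-activating protein downstream of Robo receptors, averaged 8.46 FPKM with hemin and 18.0 FPKM with vehicle, and Lingo1, a co-receptor that restrains oligodendrocyte differentiation, 3.50 and 7.81 FPKM. These 4 had the smallest p-values among the falls (edgeR adjusted p from 0.000468 to 0.0024).

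Values are given for 3 of the 6 rises on that list. Trio, a guanine nucleotide exchange factor that acts downstream of Dcc, averaged 17.1 FPKM with hemin and 5.93 FPKM with vehicle. Vasp, an actin regulator at the leading edge, averaged 17.2 FPKM with hemin and 11.6 FPKM with vehicle, and Flrt3, a membrane protein that binds Unc5 receptors, 16.0 and 9.48 FPKM (edgeR adjusted p from 0.00272 to 0.0203 for these 3 genes).

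Markers of other cell types moved with some of these genes. The shares over all genes tested were 16.2% higher and 15.7% lower. Endothelial cells also express guidance genes, some that rose here (Efnb2, Unc5b and Epha2) and some that did not pass (Plxnd1, Nrp1 and Ephb4). Robo4, another such gene, was too low to be tested. These genes were named with their values known. Of 5 tested endothelial markers 3 rose (Pecam1, Kdr and Tek, with hemin means of 2.34, 0.813 and 0.513 FPKM), while Flt1 and Esam did not pass. The 8 markers summed to 5.89 to 7.27 FPKM with hemin and 1.29 to 2.42 FPKM with vehicle. Tie1 was below 0.1 FPKM in every library, and Cldn5 averaged 0.0833 FPKM in both groups. Cdh5, too low to be tested, averaged 0.16 FPKM with hemin and 0.0767 FPKM with vehicle. Neurons express many plexins, Eph receptors and Robo receptors: of 10 tested neuronal markers 1 rose and 4 fell, and the sum was 108 to 151 FPKM with hemin and 201 to 230 FPKM with vehicle. Of 6 tested microglial markers 1 rose, with sums of 19.0 to 20.5 FPKM with hemin and 7.51 to 13.9 FPKM with vehicle. The sums of 8 astrocyte markers overlapped between the groups (380 to 514 FPKM with hemin, 459 to 550 FPKM with vehicle; 1 rose and 3 fell), as did those of 8 oligodendrocyte markers (25.9 to 36.9 and 31.6 to 52.3 FPKM; 1 of 4 tested fell, and Mog was listed in no library) and of 6 mural and fibroblast markers (3.91 to 11.4 and 3.22 to 7.32 FPKM; none of 4 passed). The part of these cells, and of the fall in OPC markers, in the changes of guidance genes was not tested.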

How the data were processed

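Per the submitters' processing notes, reads were processed with Bowtie 0.12.2 and RSEM, and the builds mm8 and mm9 are named with no role; the sources used here give neither trimming nor annotation release. Per the file headers, the deposited tables hold expected counts per transcript without scaling, and FPKM, scaled by the authors to transcript length and library size. Transcripts were summed per gene; missing genes were set to 0. Of 18743 genes, 18711 matched a RefSeq symbol (GRCm38.p6) and 32 did not. Tables of unannotated features were not used.

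Expected counts were rounded and tested in R 4.3.3 with edgeR 4.0.16 (filterByExpr by group, TMM, glmQLFit, glmQLFTest, no covariates, two-sided, Benjamini-Hochberg over 12779 genes); limma 3.58.1 and DESeq2 1.42.0 were alternatives. Calls are at an adjusted p of 0.05. The standard error is the log2 fold change divided by the square root of F. Tests were tried on simulated data. The members, lists and promoter motifs were chosen with earlier results of these data known. Values in every library are given for called members of at least 1 FPKM in the higher group and for the most abundant member of each family, group means for others of at least 1 FPKM, and, from the effector list, the 4 genes with the smallest p in each direction, of which 1 is not reported here; the marker genes come from lists of their own, and Hk3 and the library values of Efna3 and Unc5d were chosen after their values were seen. Promoters of RefSeq matched 61 of the 72 members.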

Additional observations from a re-analysis of the deposited data

How the results depend on the processing

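The direction of the 28 called members was the same under every alternative tried, and 11 calls (Epha2, Sema6a, Unc5b, Efnb2, Plxnb1, Sema5b, Sema4g, Ntn4, Epha5, Ephb2 and Robo1) also stayed below an adjusted p of 0.05 in all 13. Across other tools, scalings and filters, 28 to 32 members were called (32 by DESeq2 and with totals alone). Leaving out 1 library gave 15 to 25 called members (25.0% to 41.7%), of which 10 to 20 lower. Of all genes, 2551 to 4530 were called in these fits (19.5% to 34.8%), which fewer samples enter. The called ligands were 6 to 12, the called receptors 6 to 12 and the called effectors 8 to 24. The difference in the ligand-to-receptor ratio, hemin minus vehicle, was 0.055 and stayed between 0.034 and 0.081. Among members that did not pass, the log2 fold change of Epha4 turned to -0.01 without vehicle replicate 1 (range -0.01 to 0.21 with 1 library left out), and that of Slit2 to -0.05 with totals alone, -0.01 and -0.02 in limma at pseudocounts of 1 and 0.1, -0.18 without hemin replicate 1, 0.00 (just below 0) without vehicle replicate 2 and -0.04 without vehicle replicate 3 (range -0.18 to 0.24 with 1 library left out). Members that did not pass gained a call, lower with hemin, in some settings: Ntn1 in 7 alternatives (adjusted p from 0.021 to 0.0489), Sema6b and Plxna2 in 5 each, Sema6c in 3, Robo2 with totals alone (edgeR adjusted p = 0.0418), and Sema6d and Plxna1 without hemin replicate 1 (0.0493 and 0.0378). The median log2 fold change over all genes was 0.12 in DESeq2, where that of ligands was -0.17 and that of receptors -0.37.

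With the replicate number as a block, 25 members (41.7%), 11 ligands (36.7%) and 13 receptors (44.8%) were called, beside 3728 of all genes (29.2%). The calls of Plxnc1, Sema4d, Plxnb3 and Ephb3 were lost (edgeR adjusted p = 0.0591, 0.0568, 0.0655 and 0.0866), while Ntn1 passed (0.0226). Nothing in the labels says that equal numbers share a culture. Deviations from the group means correlated at 0.0632, 0.1 and 0.157 across genes for equal numbers, and each hemin library correlated best with the vehicle library of its own number. Depth limits what can be read for members under 1 FPKM.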
